A study of Homo sapiens with 3 samples.

Results

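The numbered zinc finger (ZNF) genes of human chromosome 19 were examined in THP1 cells, a monocytic leukaemia line, after 24 h with PMA, a phorbol ester used to turn such monocytic cells into macrophage-like ones. The genes were taken as the protein-coding genes of chromosome 19 whose symbol is ZNF followed by a number and at most 1 letter, which gave 246 of 20037 protein-coding genes. By position 83 lay on the short arm and 163 on the long arm. The wild-type cells were assayed by chromatin immunoprecipitation followed by sequencing (ChIP-seq), with 1 library for histone H3 acetylated at lysine 27 (H3K27ac, antibody ab4729 of Abcam), 1 for the deacetylase SIRT1 (antibody 8469S of CST) and 1 input. The 2 antibodies' peak lists were analysed, and input signal was not used here. Because each antibody had 1 library, there was no replicate check, and neither a test nor a p-value across genes was made. All cells were treated with PMA, so no untreated state was compared.

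Most genes of this family encode proteins with an array of C2H2 zinc fingers that read DNA and a KRAB domain that binds the co-repressor TRIM28. TRIM28 brings the methyltransferase SETDB1 and heterochromatin proteins, so that bound sites, many of them retrotransposons, become marked with H3K9me3. The genes arose by repeated tandem duplication and stand in clusters on chromosome 19, and the 3′ parts of many of them are known to carry H3K9me3 themselves. H3K27ac marks active promoters and enhancers, and SIRT1 is a NAD-dependent enzyme that removes acetyl groups from histones and other proteins.

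A peak was counted at a gene end when its summit lay within 1 kb of either end of the gene record, and as inside when its summit lay in the record but over 1 kb from both ends. Fold is the authors' own value, the height at the summit over the local background, and is compared only within its own list. The number of fragments under a summit was recovered from fold and the deposited −log10 p. The median peak of the whole H3K27ac list rested on 15 fragments and that of the SIRT1 list on 3. Intervals are 95% intervals that cover counting error only, and sequenced fragments amplified by PCR are not independent molecules. As a check of the cell type, 7 of 10 macrophage and monocyte marker genes had H3K27ac at an end, with folds from 11.0 to 109, and FCER1G, LYZ and TYROBP did not. Of 25 markers of B, T, epithelial, erythroid and liver cells, 3 did, namely CD79A at 6.96, ALAS2 at 5.16 and SERPINA1 at 34.1.

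The promoters of 6 of the genes are shown to make visible how alike these starts can be, in genes with and without an H3K27ac peak. Each sequence runs from 250 bases before to 50 bases after a gene start, 5′ to 3′ on the gene's strand, and comes from RefSeq (GRCh38.p14), whose promoter table held 216 of the 246 genes. Capitals mark CCGGAA or its reverse complement TTCCGG, the core recognised by ETS factors, and TCCAATCA or TGATTGGA, an element of the CCAAT type. ZNF91 and ZNF208 are close relatives in the short arm cluster next to the centromere; ZNF91 is known to silence SVA and L1 retrotransposons. ZNF431 and ZNF714 had the most similar pair of promoters, and were named after their values were seen. ZNF274 is known to bring SETDB1 to the 3′ parts of other zinc finger genes, and ZNF787 had the highest H3K27ac fold.

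ZNF91 (chr19:23395422-23395721, minus strand): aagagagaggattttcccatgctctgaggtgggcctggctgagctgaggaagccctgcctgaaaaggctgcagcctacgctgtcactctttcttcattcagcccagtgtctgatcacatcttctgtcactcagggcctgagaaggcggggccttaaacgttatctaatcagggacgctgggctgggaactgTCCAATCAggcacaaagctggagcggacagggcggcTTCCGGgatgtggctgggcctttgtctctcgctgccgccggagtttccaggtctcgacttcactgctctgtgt
ZNF208 (chr19:22010894-22011193, minus strand): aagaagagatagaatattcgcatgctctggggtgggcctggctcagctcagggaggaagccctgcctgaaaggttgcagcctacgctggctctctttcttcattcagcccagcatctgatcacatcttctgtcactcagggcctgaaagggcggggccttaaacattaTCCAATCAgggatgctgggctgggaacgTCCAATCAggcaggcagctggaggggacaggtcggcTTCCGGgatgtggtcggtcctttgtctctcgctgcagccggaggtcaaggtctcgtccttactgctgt
ZNF431 (chr19:21141790-21142089, plus strand): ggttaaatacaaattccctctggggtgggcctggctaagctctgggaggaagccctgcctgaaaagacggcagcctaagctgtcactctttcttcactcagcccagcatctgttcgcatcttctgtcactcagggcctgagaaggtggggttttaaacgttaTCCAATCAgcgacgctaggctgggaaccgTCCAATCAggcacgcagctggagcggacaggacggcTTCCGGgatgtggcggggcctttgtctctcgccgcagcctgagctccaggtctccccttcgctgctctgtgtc
ZNF714 (chr19:21081953-21082252, plus strand): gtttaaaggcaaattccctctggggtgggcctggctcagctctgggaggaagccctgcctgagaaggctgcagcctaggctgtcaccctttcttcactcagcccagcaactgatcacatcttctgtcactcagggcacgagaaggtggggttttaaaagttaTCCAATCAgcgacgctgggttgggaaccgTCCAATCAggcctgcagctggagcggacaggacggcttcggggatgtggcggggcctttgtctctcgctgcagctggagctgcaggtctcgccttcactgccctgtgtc
ZNF274 (chr19:58182811-58183110, plus strand): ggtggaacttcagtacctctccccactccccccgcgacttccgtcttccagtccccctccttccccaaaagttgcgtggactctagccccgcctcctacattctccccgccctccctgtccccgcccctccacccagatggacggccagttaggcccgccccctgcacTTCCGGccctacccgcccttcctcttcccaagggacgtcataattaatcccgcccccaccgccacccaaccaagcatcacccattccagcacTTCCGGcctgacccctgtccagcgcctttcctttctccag
ZNF787 (chr19:56121246-56121545, minus strand): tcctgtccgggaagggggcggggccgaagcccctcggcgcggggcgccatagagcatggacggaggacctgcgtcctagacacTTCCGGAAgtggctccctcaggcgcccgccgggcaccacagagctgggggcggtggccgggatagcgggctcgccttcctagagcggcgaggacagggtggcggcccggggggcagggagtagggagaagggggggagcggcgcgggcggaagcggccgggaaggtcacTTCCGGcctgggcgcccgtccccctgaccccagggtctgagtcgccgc

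ZNF91 and ZNF208 differed by 43 edits over these 300 bases, an identity of 85.7%. ZNF91 had an H3K27ac peak of fold 31.4 on 76 fragments at its start, chr19:23394143-23395544, while ZNF208 had none at either end. ZNF431 and ZNF714 differed by 27 edits, an identity of 91.0%, and ZNF431 had a peak of fold 9.19 on 38 fragments while ZNF714 had none. ZNF431 held 1 ETS core and 2 CCAAT-type elements, and ZNF714 held the 2 CCAAT-type elements but no ETS core. ZNF274 held 2 ETS cores and ZNF787 held 3, of which 2 overlapped, neither with the CCAAT-type element. In each of these chosen pairs 1 gene had an H3K27ac peak at an end and the other had none at an end or inside.

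H3K27ac stood at an end of 154 of the 246 ZNF genes, 62.6% (56.2 to 68.7), against 53% of all protein-coding genes. Other genes of chromosome 19 had it in 53.1% (640 of 1205; 50.2 to 56.0), and the 263 numbered ZNF genes of other chromosomes in 73.0% (67.2 to 78.3). The share on chromosome 19 thus lay between these groups, with an interval that overlapped that of the other ZNF genes in part. Within the family the short arm had 55 of 83 (66.3%) and the long arm 99 of 163 (60.7%). The difference of 5.53 percentage points had an interval of −7.34 to 17.5, so an arm difference was not detectable with this number of genes.

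The peaks at these ends were lower and narrower than at the typical acetylated gene. The median fold was 12.6 (11.3 to 14.8), against 17.8 (17.5 to 18.2) over all acetylated genes, 17.4 (15.6 to 19.5) at other chromosome 19 genes and 20.5 (18.4 to 23.3) at ZNF genes of other chromosomes. The median width was 915 bp (804 to 1003) against 1433 bp (1407 to 1459) over all acetylated genes. The median number of fragments was 41 against 59, on a median local background of 1.95 against 2.27. The lower median fold was not accompanied by a higher local background. Of the 154 genes, 19 had a fold of at least 30, 125 had a fold from 5 to under 30 and 10 had a fold under 5.

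**Figure D1:**
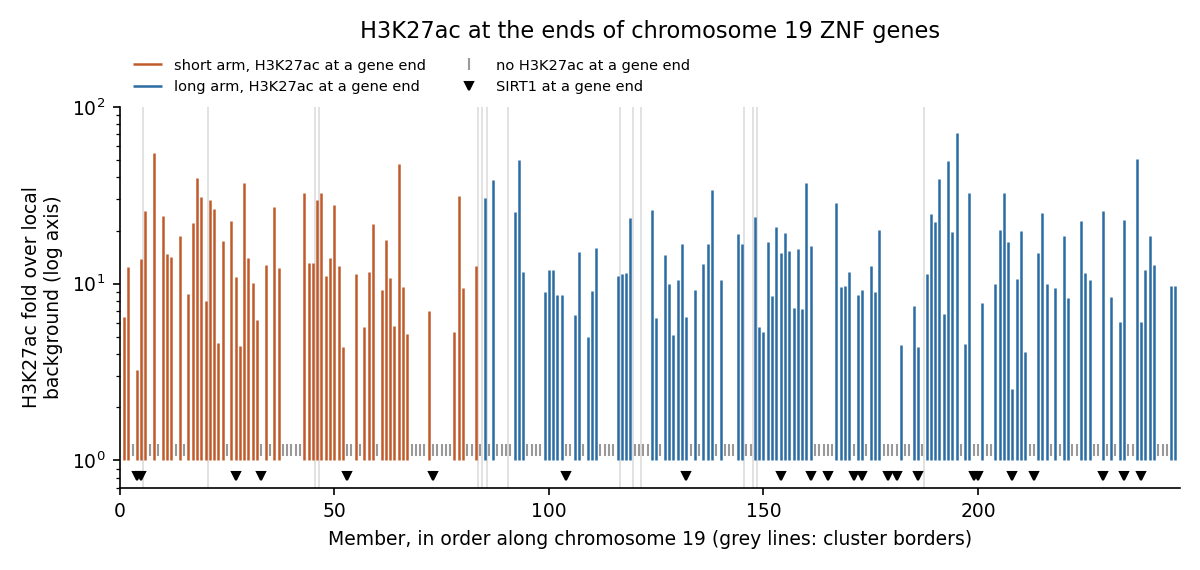
H3K27ac fold of the strongest peak at a gene end (log axis) for the 246 chromosome 19 ZNF genes in order along the chromosome, coloured by arm. Grey ticks mark the genes with no H3K27ac peak at an end, black triangles those with a SIRT1 peak there and grey lines the borders between clusters; genes with and without a peak are interspersed along both arms, with folds from 2.53 to 71.6.

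The highest fold was 71.6 at ZNF787, on 185 fragments, with a peak of 4307 bp at chr19:56117908-56122214 over its start. ZNF414 followed with 55.1 on 233 fragments (chr19:8511532-8516015), the highest of the short arm. ZNF274 had 51.1 on 249 fragments, the most of any gene in the family, in a peak at chr19:58182300-58184457. The 10 highest were spread over both arms and 6 of the positional clusters into which the family falls. ZNF566 had a fold of 50.4, ZNF581 of 49.2, ZNF429 of 47.5, ZNF561 of 39.8, ZNF865 of 39.3, ZNF181 of 38.7 and ZNF766 of 37.0. ZNF865 had the widest of the peaks, 5004 bp. At the low end ZNF304 had a fold of 2.53 on 13 fragments, with a −log10 q of 1.75, the lowest of these peaks. ZNF93, which is known to silence L1 retrotransposons, had a fold of 12.6, the median of the family, on 32 fragments at chr19:19900314-19902281.

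A few genes with other known roles were named after their values were seen. ZNF473, a component of the machinery that processes histone messenger RNA, had a fold of 23.9 on 85 fragments. ZNF175, known as a repressor of HIV in macrophages, had 5.66 on 12 fragments. ZNF536, a regulator of neuron differentiation and by far the longest gene of the family at 487995 bp, had no H3K27ac at an end. ZNF331, an imprinted gene, had none at an end or inside its record of 77035 bp.

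The acetylation sat at the gene start, taken as the end of the record that comes first on the gene's strand. For the 216 genes with a strand in the promoter table, 136 had H3K27ac at the start (63.0%; all genes 53.3%), and 5 had it at the stop (2.31%, 0.756 to 5.32; all genes 7.22%). Other chromosome 19 genes had it at the stop in 14.1% (137 of 969), above the interval of the ZNF genes. ZNF genes of other chromosomes had it there in 5.61% (12 of 214; 2.93 to 9.59), an interval that overlapped that of chromosome 19. ZNF324, ZNF580, ZNF628 and ZNF784 had a peak at both ends. The stop peak of ZNF324 also lay at the start of ZNF446, and that of ZNF580 at another start of ZNF581. ZNF577 was the gene with a peak at its stop and none at its start. None of 73 short arm genes had a peak at its stop, which allows a share of up to 4.93% by the exact interval.

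The summits at these starts also lay closer together. The median summit lay 194.5 bp downstream of the start, with quartiles of 134.5 and 262.5 bp, and at other genes 201 bp downstream with quartiles of 12 and 320 bp. Of the 136 genes 87.5% (80.7 to 92.5) had their summit downstream, against 75.1% (74.2 to 76.1) of 8305 other genes. The window from 100 to 400 bp downstream held 74.3% (66.1 to 81.4) of the ZNF summits and 54.1% (53.1 to 55.2) of the others. The medians were alike, and it was the spread that was smaller.

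**Figure D2:**
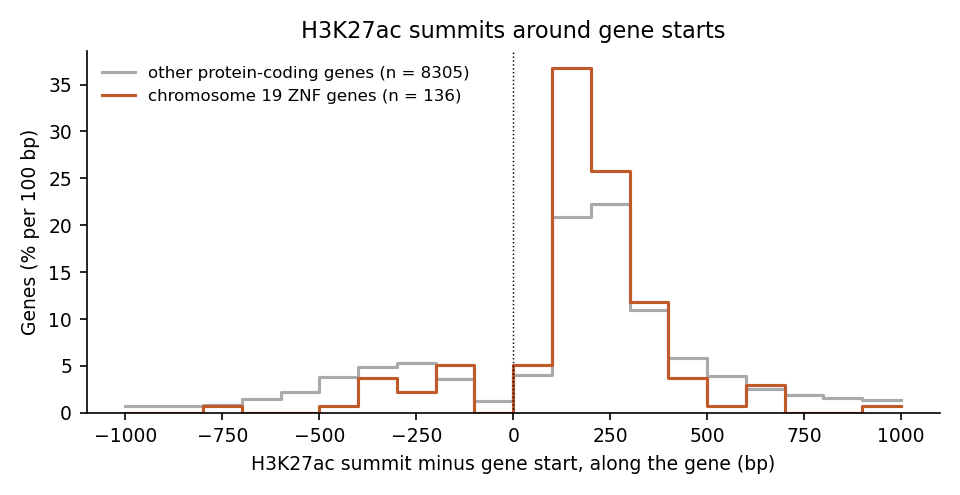
Position of the strongest H3K27ac summit relative to the gene start, positive along the gene, as the percentage of genes in bins of 100 bp, for chromosome 19 ZNF genes (n = 136) and other protein-coding genes (n = 8305). The ZNF summits gather 100 to 400 bp downstream, where 74.3% of them lie against 54.1% of the others.

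Cut wherever neighbouring genes stood over 1 Mb apart, the family formed 16 clusters along the chromosome, of which 9 held at least 5 genes and 235 of the 246 together. Each is named here by its first and last gene. On the short arm, H3K27ac stood at an end of 4 of 5 genes in ZNF554 to ZNF77, 11 of 15 in ZNF557 to ZNF846, 17 of 25 in ZNF653 to ZNF791 and 22 of 37 in ZNF101 to ZNF254. On the long arm it stood at 1 of 5 in ZNF302 to ZNF792, 14 of 26 in ZNF565 to ZNF573, 15 of 24 in ZNF575 to ZNF296, 25 of 39 in ZNF175 to ZNF331 and 39 of 59 in ZNF628 to ZNF446. The exact intervals of all 9 clusters overlapped one another, so no cluster stood apart at this size. The median fold was highest among clusters with several acetylated genes in ZNF557 to ZNF846, at 22.1, and lowest in ZNF554 to ZNF77 at 9.45 and ZNF175 to ZNF331 at 9.71. The interval of the highest (8.77 to 39.8) overlapped that of ZNF175 to ZNF331 (8.56 to 15.7). It also overlapped the range of the 4 folds in ZNF554 to ZNF77 (3.27 to 13.8).

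The acetylated gene of ZNF302 to ZNF792 was ZNF181, with the fold of 38.7 given above. The highest gene of ZNF653 to ZNF791 was ZNF700 at 37.0, of ZNF575 to ZNF296 ZNF227 at 34.0, and of ZNF554 to ZNF77 ZNF77 at 13.8. The longest gene with no H3K27ac at a record end was ZNF676 (81216 bp) in ZNF101 to ZNF254, ZNF420 (122467 bp) in ZNF565 to ZNF573 and ZNF560 (60817 bp) in ZNF557 to ZNF846. In the other clusters of the short arm they were ZNF556 and ZNF563, and on the long arm ZNF599, ZNF112, ZNF331 and ZNF324B. Of these, ZNF420 (fold 5.47 on 24 fragments) and ZNF324B (3.72 on 16) had a peak at another start of theirs, inside the record.

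The clusters also differed in how much acetylation surrounded the genes. H3K27ac summits per Mb of cluster span numbered 6.50 in ZNF101 to ZNF254, a 4.46-Mb stretch next to the centromere, and 77.0 in ZNF575 to ZNF296, a 1.55-Mb stretch of the long arm. Gene ends were acetylated in 59.5% and 62.5% of their ZNF genes. ZNF302 to ZNF792, with 6.94 summits per Mb, had 1 of 5. With 5 to 59 genes a cluster, the intervals were wide. In ZNF101 to ZNF254, 29 summits in all lay within the span.

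**Figure D3:**
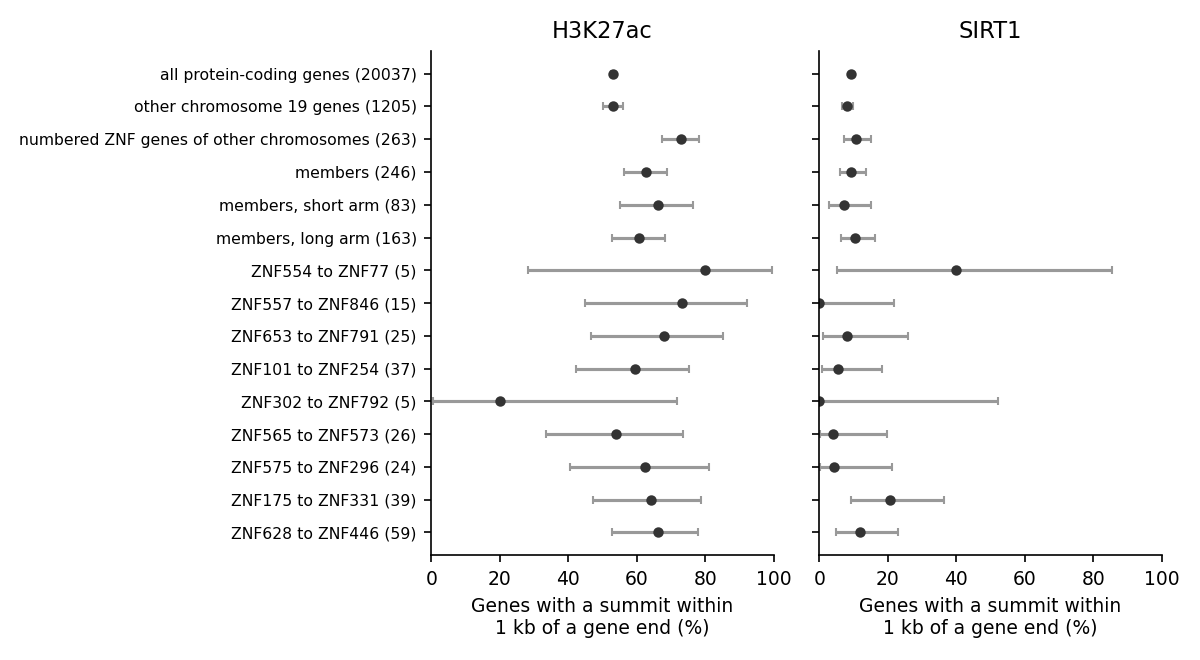
Share of genes with an H3K27ac summit (left) or SIRT1 summit (right) within 1 kb of a gene end, for all protein-coding genes, 2 comparison groups, the chromosome 19 ZNF genes ("members"), their arms and the 9 clusters, with gene numbers in brackets. Points are percentages and bars 95% exact binomial intervals, which overlap among all clusters.

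Neighbours within these clusters were often alike but not always. Of 230 neighbouring pairs, 100 had H3K27ac at both genes, 43 at neither and 87 at 1 of the pair. Among genes with a promoter entry, 1502 of all 3210 pairs within a cluster (46.8%) had it at 1 of the pair. The neighbours of an acetylated gene were acetylated in 69.7% of cases and those of an unacetylated gene in 50.3%. The longest acetylated run along the chromosome held 14 genes, from ZNF473 to ZNF480 across 1 border between clusters, with folds from 5.30 at ZNF577 to 37.0 at ZNF766. The longest runs without H3K27ac at a record end held 5 genes, and there were 3 of them, ZNF563 to ZNF709, ZNF492 to ZNF730 and ZNF610 to ZNF578. In the first, ZNF442 and ZNF799 had a peak at another start inside the record. Some neighbours shared 1 peak, which was counted for both genes: ZNF490 and ZNF791 (fold 13.0), ZNF790 and ZNF345 (11.9), ZNF829 and ZNF568 (8.61), and ZNF324 and ZNF446 (9.66). In 9 genes the strongest end peak also lay at an end of a protein-coding gene outside the family, and such a peak cannot be assigned to 1 of them.

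The acetylated promoters of the family held fewer CpG dinucleotides than those of other acetylated genes, and its unacetylated promoters held more. Over all its promoters the median was 20 (18 to 21), against 22 over all genes. By acetylation, the median was 21 CpG per 300 bases in ZNF genes with H3K27ac at a record end and 18 in those without, and 27 and 10 in other genes. The split is by record ends, and 19 of the ZNF genes without a peak there had one at another start. Split by a summit within 1 kb of the start whose promoter was read, a choice made after seeing the data, 150 ZNF promoters had H3K27ac and 66 had none, with medians of 21 and 17. Short arm promoters had a median of 15 (13 to 17) and long arm promoters 22 (21 to 24), with the lowest median, 10, in ZNF101 to ZNF254. The step in acetylation with CpG number seen over the genome was smaller here. With 0 to 9 CpG, 7 of 15 ZNF genes had H3K27ac at a gene end, 46.7% (21.3 to 73.4), against 19.6% (18.5 to 20.9) of other genes. With 10 to 19 CpG the shares were 59.3% and 54.2%, with 20 to 29 CpG 70.1% and 73.1%, and with 30 or more 64.3% and 73.5%. By record ends, the interval of the first bin lay just above that of the other genes, and the intervals of the other bins overlapped. By the start whose promoter was read, the share with 0 to 9 CpG was 46.7% of ZNF genes and 14.4% of others. With 10 to 19 CpG it was 66.3% (55.3 to 76.1) and 52.6% (50.7 to 54.6). By that count the intervals of both these bins lay above those of other genes. With 20 to 29 CpG the shares were 75.9% and 73.9%, and with 30 or more 71.4% and 74.9%, with overlapping intervals. The median fold in the bin of 20 to 29 CpG was 13.0 (10.0 to 15.3) at ZNF genes and 18.4 (17.7 to 19.1) at others, intervals that did not overlap. In the other bins they overlapped, with medians of 11.4 and 11.9 for 0 to 9 CpG, 12.6 and 17.4 for 10 to 19, and 15.7 and 20.1 for 30 or more.

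**Figure D4:**
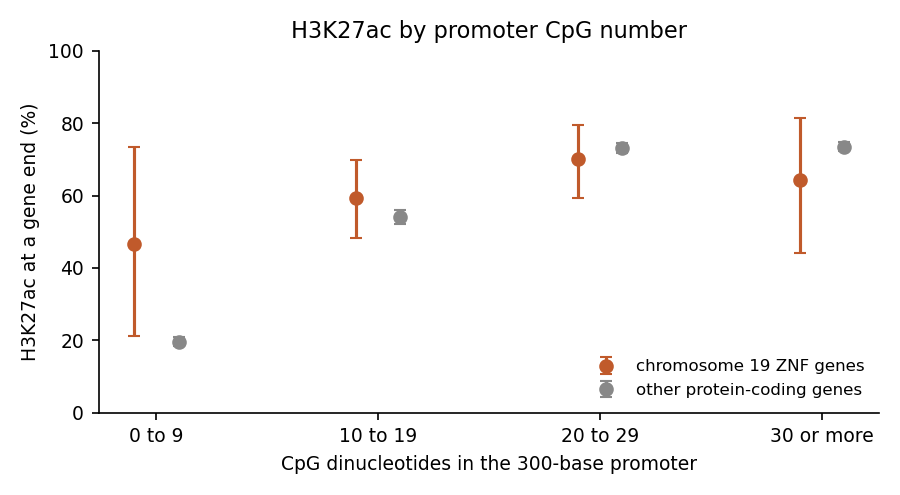
Share of genes with H3K27ac at a gene end by the number of CpG dinucleotides in the 300-base promoter, for chromosome 19 ZNF genes and other protein-coding genes, with 95% exact binomial intervals. From the poorest to the richest bin the share runs from 46.7% to 64.3% at ZNF genes and from 19.6% to 73.5% at other genes.

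Of the short sequence elements searched, 2 were far more common here than among all promoters. CCGGAA, counted on both strands, was found in 120 of 216 ZNF promoters, 55.6%, against 22.7% of all promoters of this length. It was present in 56.9% of ZNF promoters with and 53.2% of those without H3K27ac at a record end, and in 32.2% and 10.0% of those of other genes. By the promoter's own start the shares were 57.3% and 51.5% in ZNF genes and 33.3% and 9.18% in others. TCCAATCA, likewise on both strands, was found in 52 of the 216, 24.1%, against 1.79% of all promoters. All 52 lay on the short arm: 29 of 29 promoters in ZNF101 to ZNF254, 19 of 24 in ZNF653 to ZNF791 and 4 of 5 in ZNF554 to ZNF77. The fourth short arm cluster, ZNF557 to ZNF846, had 0 of 14, and the long arm had 0 of 143. Genes whose promoter held TCCAATCA had H3K27ac at a record end in 35 of 52, 67.3% (52.9 to 79.7), and those without it in 102 of 164, 62.2% (54.3 to 69.6). By the promoter's own start the counts were 35 of 52 and 115 of 164. Both elements were chosen after short words had been counted in these promoters, without use of the peaks, and neither word contains the other. Tandem duplicates share sequence by descent, so these promoters are not independent of one another.

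**Figure D5:**
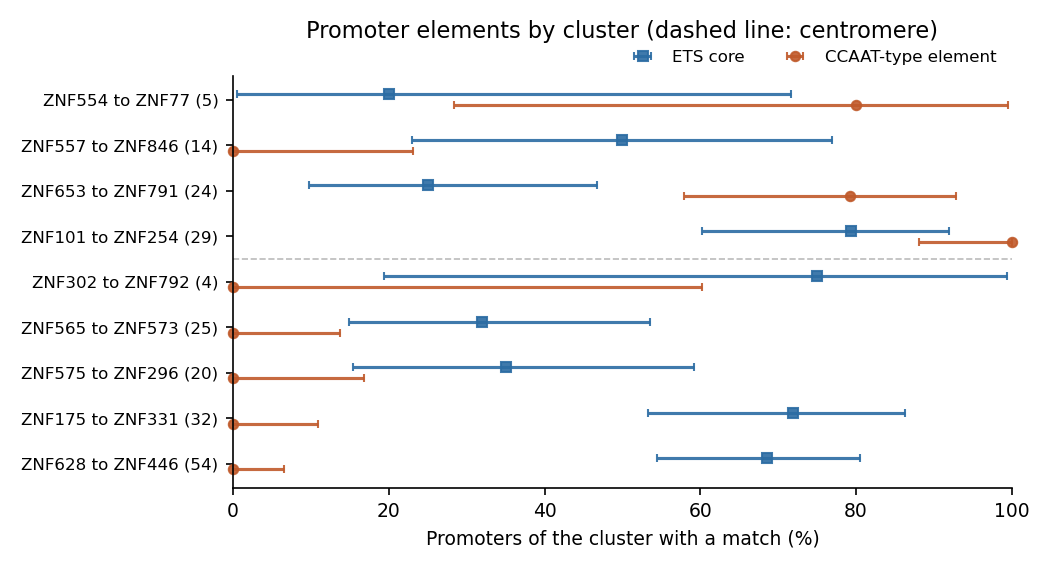
Share of promoters with the ETS core or the CCAAT-type element in each cluster of at least 5 genes, ordered from the short arm to the long arm, with promoter numbers in brackets and 95% exact binomial intervals. The CCAAT-type element is found in 3 of the 4 short arm clusters and in none of the long arm clusters, while the ETS core is found in all 9.

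A further 5 elements were looked for, on both strands. The GC box GGGCGG was found in 67.1% of ZNF promoters and 58.3% of all promoters, AAGATGGC, the word bound by YY1, in 6.48% and 3.86%, and TGACGTCA, the cyclic AMP response element, in 3.24% and 2.56%. TATAAA was found in 5 of 216, 2.31%, against 9.75%. AAGATGGC was present in 14 of 137 ZNF promoters with H3K27ac at a record end, 10.2% (5.70 to 16.6), and in 0 of 79 without, which allows up to 4.56% by the exact interval. In other genes its shares were 5.91% and 1.25%. TGACGTCA was present in 7 of 137 and 0 of 79, and in 3.45% and 1.45% of other genes. By the promoter's own start the same 14 and 7 promoters stood among 150 with H3K27ac, and 0 among 66 without. The last of the 5, a GC-rich palindrome, was found in 2.78% of ZNF promoters and 1.77% of all promoters. It went the other way, with 2 of 137 ZNF promoters with H3K27ac at a record end (1.46%) and 4 of 79 without (5.06%). These intervals overlapped. In other genes its shares were 2.75% and 0.516%. A match describes the letters in this window and no binding was measured.

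Pairs of similar promoters differed in acetylation no less often than pairs in general. Among 23220 pairs of the 216 promoters, 90 pairs were at least 80% identical (at most 60 edits), all of them within a cluster, and they involved 34 genes. In 30 pairs both genes had H3K27ac at a record end, in 17 neither and in 43 only 1, which is 47.8% of them. Over all pairs of the 216 promoters the share with only 1 was 46.6%, and over the 3210 pairs within clusters 46.8%. By the promoter's own start the share was 46.7% of the similar pairs and 42.6% of all pairs. The pairs reuse genes and are not independent. Of the 34 genes, 22 had H3K27ac at an end. ZNF93 (fold 12.6) and ZNF66 (5.68) each had a promoter close to that of ZNF486, which had no peak, at 87.0% and 87.3% identity. In ZNF701 (9.54) and ZNF845 (4.48), at 86.0%, both genes were acetylated. How reads that match several copies were placed is not given in the sources used here, so peaks at near-identical sequence are uncertain.

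Inside the records, H3K27ac was sparse. It was found inside 45 of the 246 genes (18.3%, 13.7 to 23.7; all genes 32%), at 66 summits or 9.87 per Mb (7.63 to 12.6). All protein-coding genes had 17.8 per Mb, ZNF genes of other chromosomes 15.9 (13.8 to 18.2) and other chromosome 19 genes 51.2 (48.3 to 54.2). The density was 5.29 per Mb (2.81 to 9.04) on the short arm and 12.5 (9.39 to 16.4) on the long arm, with intervals that did not overlap. The ZNF genes were thus the least acetylated inside of these groups, on the chromosome whose other genes were the most.

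Many of the inner peaks were starts of the same genes. The 64 distinct peaks included 31 within 1 kb of another start of the host gene in the promoter table, with a median fold of 10.1. A further 2 lay at the start of another ZNF gene, ZNF700 inside ZNF69 and ZNF580 inside ZNF581. The remaining 31, at no start in the table, had a median fold of 3.94. Genes with no promoter entry have no start in the table, so their starts could not be recognised. Among the 31 were peaks at a record end of such genes, ZNF763 inside ZNF69 (fold 13.9) and ZNF28 inside ZNF600 (8.61). Counting the starts in the promoter table, 19 genes with no peak at a record end gained one, among them ZNF444 (30.1), ZNF302 (29.9), ZNF529 (29.9), ZNF565 (25.5) and ZNF574 (25.4), and the number of acetylated genes became 173. The peak inside ZNF565 also lay at the start of ZNF146. Neither the inner peaks at own starts nor the genes gained were set beside a count for other genes. Neither can therefore be called particular to the family. At an end or inside, 178 of the genes (72.4%) had H3K27ac, against 63.7% of all genes, and 68 had none.

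SIRT1 was found at an end of 23 of the ZNF genes, 9.35% (6.02 to 13.7), and all protein-coding genes had it in 9.34%. The share was the same as the background. It was 8.05% at other chromosome 19 genes and 10.6% at ZNF genes of other chromosomes, with overlapping intervals. By end, 9 of the 216 genes with a strand had SIRT1 at the start (all genes 3.43%) and 10 at the stop (4.63%, 2.24 to 8.35; all genes 6.43%). The short arm had 6 of 83 and the long arm 17 of 163. ZNF175 to ZNF331 had 8 of 39 genes and ZNF628 to ZNF446 7 of 59, while ZNF557 to ZNF846 and ZNF302 to ZNF792 had none of 15 and none of 5.

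These SIRT1 peaks rested on very few fragments. Of the 23 end peaks, 4 had 2 fragments, 13 had 3 and 6 had 4. Their folds ran from 2.20 to 3.67, their highest −log10 q was 0.175 and in 17 it was 0, so none reached a q of 0.05. The highest were ZNF57, ZNF844, ZNF772 and ZNF471, each at a fold of 3.67 on 4 fragments, and ZNF615 at 3.46. The ZNF844 peak, at chr19:12064539-12065196, lay at the gene's start, and those of ZNF57 (chr19:2917486-2917857) and ZNF772 (chr19:57469383-57469675) lay at the stop. Of the 23 end peaks, 15 lay on the lowest background of the list, where equal counts give equal folds.

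Both marks stood at an end of 12 of the ZNF genes (4.88%, 2.55 to 8.37; all genes 3.39%). In 3 of the 12 both stood at the same end, and in 1, ZNF439, the SIRT1 peak overlapped the H3K27ac peak. ZNF439 had H3K27ac at a fold of 10.9 and SIRT1 at 3.23 on 4 fragments. ZNF615 had SIRT1 803 bp from its start and H3K27ac at a fold of 14.9 at 153 bp. The other genes were ZNF57, ZNF77, ZNF223, ZNF304, ZNF468, ZNF480, ZNF544, ZNF587, ZNF606 and ZNF813. Across the 23 end peaks, that of ZNF439 was the single one to overlap H3K27ac (4.35%). Over all protein-coding genes 47 of 1867 SIRT1 end peaks did (2.52%), and at other chromosome 19 genes 3 of 98 (3.06%).

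Inside the records SIRT1 was found in 121 of the ZNF genes (49.2%, 42.8 to 55.6; all genes 48%). Their 259 summits gave 38.7 per Mb (34.2 to 43.8), against 32.4 per Mb in all genes, 32.4 (29.4 to 35.7) in ZNF genes of other chromosomes and 29.5 (27.3 to 31.8) in other chromosome 19 genes. ZNF536 alone held 32 of these summits, and without it the density was 36.6 per Mb (32.0 to 41.7). The interval without ZNF536 reached below the value of all genes and lay just above the interval of the other chromosome 19 genes. Against the rest of the chromosome H3K27ac was lower, at 9.87 against 51.2 per Mb. SIRT1 was higher, at 38.7 against 29.5. On the long arm, which includes ZNF536, SIRT1 stood at 42.8 per Mb (36.8 to 49.5). On the short arm it stood at 31.7 (25.1 to 39.6), an interval that overlapped that of the other chromosome 19 genes. It also overlapped that of the long arm, so an arm difference in SIRT1 was not detectable.

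The inner SIRT1 peaks were as thin as those at the ends. Of 255 distinct peaks, 97 had 2 fragments, 123 had 3, 31 had 4 and 4 had 5, and in 222 the −log10 q was 0. The highest, each at a fold of 4.41 on 5 fragments with a −log10 q of 0.614, were in ZNF208 (chr19:21997241-21997672), ZNF529 (chr19:36597828-36598093), ZNF845 (chr19:53336897-53337312) and ZNF331 (chr19:53554059-53554683). Next came 27 peaks tied at a fold of 3.67 on 4 fragments, in 22 of the genes, among them ZNF555. Of the inner peaks 5 of 255 overlapped an H3K27ac peak, and of those inside all protein-coding genes 410 of 39795, or 1.03%. ZNF560 held 8 of them in its 60817 bp, ZNF420 7 and ZNF599 6.

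With each record cut into 5 equal parts from start to stop, SIRT1 summits inside genes with a strand numbered 49, 34, 44, 51 and 49 of 227. H3K27ac summits numbered 17, 15, 17, 7 and 6 of 62. The first part held 21.6% (16.4 to 27.5) of the SIRT1 summits and the last, where the zinc fingers are usually encoded, 21.6% (16.4 to 27.5). No difference between these parts was detectable at this depth. In all, 31 of the 246 genes (12.6%) had neither mark at an end or inside, against 19.2% of all protein-coding genes.

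The partners through which KRAB zinc finger proteins act were nearly all acetylated. In a list of 20 co-repressor genes, 19 had H3K27ac at an end (all genes 53%), with a median fold of 20.03. TRIM28, also on chromosome 19, had a fold of 16.8 and SETDB1 of 20.03. CBX3, a heterochromatin protein gene, had a fold of 102, and MORC2, a partner of the HUSH complex, had 47.7. The lowest was CBX1 at 7.66. UHRF1, which couples histone marks to DNA methylation, had no H3K27ac at an end but had peaks inside, the highest at 25.2. SIRT1 stood at an end of 3 of the 20 (all genes 9.34%), a list too short to tell from that share. They were CBX5 (3.67 on 4 fragments), MPHOSPH8 (2.94 on 3) and UHRF1 (2.26 on 3), and none of these peaks reached a q of 0.05.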

How the data were processed

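The submitters' processing notes name MACS2 and deepTools as tools and hg38 as the build. Versions, aligner and control sample: not given in the sources used here. Each antibody's deposited list gave the summit, a fold (ratio over local background), −log10 p and −log10 q for each peak. The deposited score was not used. The lists were filtered by the authors on different quantities, so folds were compared within a list. Each antibody had 1 library, and the lists carry no total read number.

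Fragments n and background b were recovered from fold = (n + 1)/(b + 1) and p as a Poisson tail, with a single solution for 99.988% of 50268 H3K27ac and 99.998% of 96805 SIRT1 peaks. The lowest background was 0.937 and 0.362 fragments. Tested on simulated data, the step returned 100% of 583 H3K27ac-like and 100% of 870 SIRT1-like peaks.

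Gene records, strand and promoters came from RefSeq tables (GRCh38.p14). Of several starts the one nearest the record's 5′ end was used; it was the record end in 179 of 216 genes and over 1 kb away in 29. Of the 30 genes with no promoter entry, 17 had H3K27ac at an end. The arms were split at 26 Mb and clusters at gaps over 1 Mb. Intervals were exact binomial or Poisson, order-statistic for medians and Newcombe for the arm difference. Promoters were compared by edit distance.

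Members and lists were chosen with earlier results of these data known. Named genes were the 10 highest in H3K27ac fold at an end; the 5 highest in SIRT1 fold at an end and inside; per cluster of at least 5 the highest and the longest without H3K27ac; of the genes with both marks the 5 highest in SIRT1; ZNF91, ZNF93 and ZNF274; and of the co-repressors the 3 highest and any with SIRT1. Others were named after their values were seen. A gene that the rule selects is not reported here. Alternatives changed the end window, the overlap rule, the cut on fold or q, the inside rule and the cluster gap. Software was edlib 1.3.9.post1, matplotlib 3.10.9, scipy 1.17.1, pandas 2.3.3 and numpy 2.4.6 under Python 3.11.15.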

Additional observations from a re-analysis of the deposited data

Results flagged for a closer look

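The H3K27ac list held 133 peaks on contigs assigned to chromosome 19 but outside its main sequence, spread over 19 contigs, with a median fold of 6.20 and a highest fold of 41.6. The SIRT1 list held 26 such peaks on 10 contigs, with a median fold of 2.20. These peaks entered no comparison, and which ZNF genes they lie near was not examined. They stand beside 2435 H3K27ac and 1905 SIRT1 peaks on the main sequence of the chromosome.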

How the results depend on the processing

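The number of ZNF genes with H3K27ac at an end stayed between 145 and 173, its median fold between 12.2 and 12.7, and the arm difference between 1.83 and 7.41 points under every alternative run. SIRT1 counts did not hold. Genes with SIRT1 at an end numbered 12 with a 500-bp window, 67 with 2500 bp, 0 with a fold of at least 4 and 0 with a −log10 q of at least 5; genes with both marks numbered 5, 38, 0 and 0. With peaks on at least 4 fragments, chosen after seeing the data, they numbered 6 and 3, genes with SIRT1 inside 28, and inner SIRT1 summits 5.23 per Mb. Under the fold and q limits genes with SIRT1 inside numbered 4 and 0, at 0.598 and 0 per Mb; these limits left 1543 and 3 SIRT1 peaks in all. H3K27ac inside came to 14.4 per Mb by 1 shared base, 7.03 and 6.88 under the fold and q limits, and 28.6, in 163 genes, over whole records, which include the ends. Genes with H3K27ac at the stop only numbered 0 and 5, and at both ends 2 and 12, with 500 and 2500 bp. A gap of 2 Mb gave 8 clusters. Where no construction is named, the cause was not tested. The densities without ZNF536 and the count with promoter table starts were also chosen after seeing the data. No paired analysis was possible because each antibody had 1 library and the labels carry no replicate numbers. SIRT1 peaks of 2 to 5 fragments limit what can be said of single genes.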
